A study of Homo sapiens with 16 samples.

Results

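Chromatin accessibility under the combination of active Raf and hypoxia was set against accessibility with neither, in IMR90, a human fibroblast line from lung. Accessibility was measured by ATAC-seq, in which the transposase Tn5 inserts sequencing adapters into open chromatin and the sites of dense insertion are called as peaks. The members are all 4 libraries labelled Hypoxia_Raf_activated and all 4 labelled Normoxia_Raf_inactivated, chosen by those labels alone, 8 of the 16 libraries of the series. The combined-treatment cells (Raf plus hypoxia) had Raf switched on and were kept in hypoxia at 0.5% oxygen; the untreated cells (neither) had Raf switched off and were kept in normoxia. The other 8 libraries, 4 of Raf-activated cells in normoxia (Raf alone) and 4 of Raf-inactivated cells in hypoxia (hypoxia alone), entered the fits and are given for comparison. Raf came from a retrovirus carrying ΔB-RAF:ER, a truncated B-RAF fused to an estrogen receptor domain that 4-hydroxytamoxifen (4-OHT) activates. The model is 1 line that overexpresses the kinase. The labels carry 1 treatment text for all groups and give no duration. They do not say whether inactivated cells received a vehicle or whether replicates came from separate cultures. The p-values thus cover the spread among the libraries used alone, perhaps only technical spread. Permutation tests used only the libraries compared, and the fits of gene loci and bins took their spread from all 16 libraries.

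B-RAF is the kinase that feeds the MEK-ERK cascade, and sustained activity of it drives fibroblasts into oncogene-induced senescence, a stable arrest with loss of lamin B1, a secretory programme rich in cytokines and proteases, and rearranged heterochromatin. Hypoxia stabilises the HIF transcription factors by inhibiting the prolyl hydroxylases that mark them for VHL-dependent degradation. HIF dimers bind sites with the core ACGTG, and AP-1, made of FOS and JUN proteins downstream of ERK, binds TGANTCA. The study asked how hypoxia affects chromatin accessibility in oncogene-induced senescence.

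Each library has its own list of peaks, and the lists differ in depth. The background pileup, the read coverage that the peak caller took as its floor, stands in for depth here. It was recovered from the listed fold enrichment and p, and lay between 6.531 and 8.336 in combined-treatment libraries, between 6.087 and 7.103 with Raf alone, between 4.605 and 5.022 with hypoxia alone, and between 3.013 and 3.498 in untreated libraries. The deeper libraries are thus those of the combined treatment. Several results that a longer list could set are given also at matched depth, where every peak was thinned to the lowest background. Promoter counts are given at full depth only. A list holds only what passed the caller's threshold, so absence of a peak means that none was called at that depth. Fibroblast marker loci kept peaks in both groups. Their summed level over 14 loci was 111.8 to 115.6 scaled peaks in combined-treatment libraries, 110.5 to 126.2 with Raf alone, 152.3 to 156.5 with hypoxia alone and 134.2 to 138.6 in untreated libraries, and the marker loci of other cell types described further on held peaks too, so that this level does not single out the labelled type.

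Part of the peak set was shared by both groups and part differed. Of all regions with a peak in any of the 16 libraries, 92735 (26.1%) had one in all 8 libraries of both groups. The Jaccard index, the base pairs that 2 lists share over those that either covers, averaged 0.430 between combined-treatment and untreated libraries, with all 16 pairs between 0.423 and 0.437. Within groups it averaged 0.783 among combined-treatment libraries and 0.711 among untreated libraries. The mean within both groups exceeded the mean between them by 0.318, with p = 0.0286 (exact permutation test of the 8 libraries, upper tail). This is the smallest p the design allows, since mirrored splits give the same difference. At matched depth the difference was 0.317. The combined-treatment lists were nearer to those of Raf alone, with a mean index of 0.641, than to those of hypoxia alone, at 0.455, and no pair of combined-treatment and Raf-alone libraries fell below 0.635.

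Combined-treatment lists were longer and covered more of the genome. They held 201326, 197591, 206757 and 200481 distinct peaks, against 176679, 175200, 176295 and 179646 in untreated libraries. The groups did not overlap, and the means differed by 24584 peaks (exact permutation, p = 0.0286, adjusted p = 0.0343 over 6 library values). At matched depth the difference was 566 peaks (exact permutation, p = 0.457), with 167996 ± 1043 peaks in combined-treatment and 167430 ± 726 in untreated libraries (SD, n = 4), so the surplus in number was not detectable there. The covered length was 98.8 ± 2.33 Mb in combined-treatment and 79.4 ± 2.23 Mb in untreated libraries (SD, n = 4; exact permutation, p = 0.0286). It still differed by 12.4 Mb at matched depth and by 10.2 Mb when peaks had to be enriched at least 5-fold, where the median peak was 76 bp longer with the combined treatment, although matching keeps the peak lengths called at full depth.

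**Figure D1:**
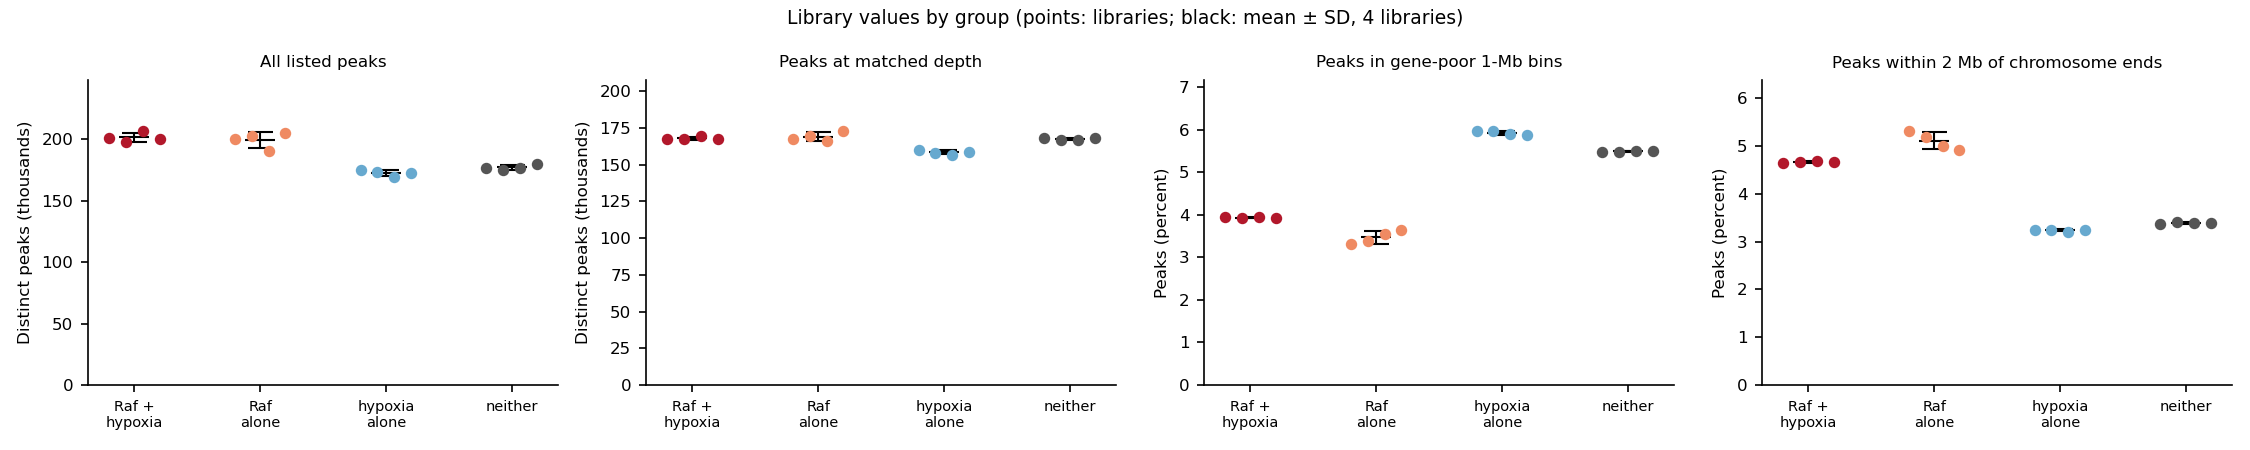
Distinct peaks, peaks at matched depth (both in units of 1000), percent of peaks in gene-poor bins and percent within 2 Mb of chromosome ends, by group. Points are libraries and black bars the mean ± SD of 4. The groups stand apart in listed peaks, by 24584 on average, and differ by 566 at matched depth, while the shares in gene-poor bins and near chromosome ends keep the groups apart.

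A smaller share of peaks lay in the gene-poor parts of the genome with the combined treatment. Gene-poor bins are the 608 of 3043 bins of 1 Mb ranked lowest by protein-coding genes, with ties kept by position. Each has at most 1 such gene. These bins held 3.95%, 3.93%, 3.94% and 3.93% of the peaks of the combined-treatment libraries, against 5.49%, 5.48%, 5.51% and 5.50% in untreated libraries. The difference was -1.56 percentage points (exact permutation, p = 0.0286, adjusted p = 0.0343) and was -1.47 at matched depth. The share near chromosome ends, within 2 Mb, was higher: 4.67% ± 0.0136 in combined-treatment and 3.39% ± 0.021 in untreated libraries (SD, n = 4), a difference of 1.28 percentage points (exact permutation, p = 0.0286, adjusted p = 0.0343). Neither single treatment gave the same level. Gene-poor bins held 3.47% ± 0.151 with Raf alone and 5.93% ± 0.048 with hypoxia alone, so the combined treatment lay 0.462 points above Raf alone and 1.99 below hypoxia alone, with no overlap of libraries in either comparison (exact permutation, p = 0.0286 each). Near chromosome ends the share was 5.11% ± 0.181 with Raf alone and 3.24% ± 0.0223 with hypoxia alone. Peaks no more than 1 kb from a protein-coding gene's start or end made up 11.3% ± 0.183 of the list with the combined treatment and 11% ± 0.0746 in untreated libraries, and their libraries overlapped (exact permutation, p = 0.0857). At matched depth it was 12% ± 0.139 with the combined treatment and 11.2% ± 0.0629 in untreated libraries, and the difference of 0.826 points passed the test (exact permutation, adjusted p = 0.0343).

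Chromosome by chromosome, the share of peaks was higher on 13 and lower on 10 of 23, and on each of them the 4 combined-treatment and the 4 untreated libraries did not overlap (exact permutation, p = 0.0286 each, also after adjustment over 23 chromosomes). Chromosome 22 held 2.13% ± 0.0267 of peaks in combined-treatment and 1.61% ± 0.016 in untreated libraries, 32.1% more in relative terms. Chromosome 19, the densest in genes with 24.8 protein-coding genes per Mb, held 3.13% ± 0.0125 in combined-treatment and 2.41% ± 0.018 in untreated libraries, 29.5% more. Chromosomes 20, 16 and 17 followed with 25.7%, 22.6% and 17.1% more. At the other end stood chromosome 4, with 4.04 genes per Mb, which held 4.33% ± 0.0234 of peaks in combined-treatment and 5.43% ± 0.0308 in untreated libraries (SD, n = 4), a relative change of -20.2%. Chromosome 13, the poorest in genes with 2.96 per Mb, changed by -14.8%, chromosome 6 by -12.4% and chromosome 5 by -10.9%. Gene density does not order every chromosome: chromosome 21, with 5.12 genes per Mb, gained 7.64%, and chromosome 12, with 7.69, changed by -2.31%. Shares on the chromosomes of a library sum to a fixed total, so these changes are not independent of each other.

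**Figure D2:**
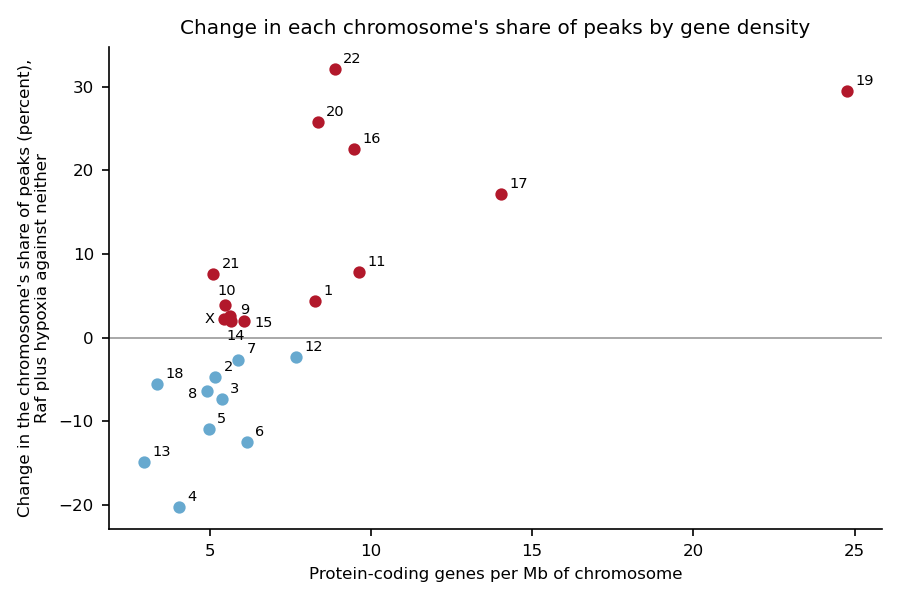
Relative change in each chromosome's share of distinct peaks (percent, combined treatment against untreated, means of 4 libraries each) by its protein-coding genes per Mb. Each point is a chromosome, red where the share is higher and blue where it is lower. Chromosomes 22 and 19 stand highest at 32.1% and 29.5%, and chromosome 4 lowest at -20.2%.

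The same shift was seen in 1-Mb bins, each tested in limma on log2 of scaled peaks plus 1. Of 2439 bins tested 918 rose (37.6%) and 1167 fell (47.8%). This balance rests on the scaling and the threshold. Without scaling 1215 bins were higher and 868 lower, and for peaks enriched at least 5-fold 971 were higher and 947 lower. At matched depth 921 were higher and 1114 lower. In the 217 bins with 20 or more genes 184 rose and 9 fell, with a median log2 change of 0.31, which was 0.50 with Raf alone and -0.04 with hypoxia alone. In the 366 bins with 0 or 1 gene 65 rose and 250 fell, with a median of -0.44, which was -0.58 with Raf alone and 0.09 with hypoxia alone. The deepest fall was on chromosome 5 from 117000001 to 118000000, a bin of 2 genes with a log2 change of -2.91 ± 0.154 (SE, adjusted p = 2.15e-11). It held 4.19 ± 0.492 scaled peaks with the combined treatment and 0.707 ± 0.472 with Raf alone, against 37.9 ± 1.75 in untreated libraries (SD, n = 4). The largest rises without overlap of groups were on chromosome 8 from 138000001 to 139000000, at 2.40, and chromosome 22 from 48000001 to 49000000, at 1.91. Raf alone was at 1.85 and 2.41 there. Next came chromosome 2 from 129000001 to 130000000, with a log2 change of 1.62 ± 0.0555 (SE, adjusted p = 2.35e-13). That bin held 21.6 ± 0.756 scaled peaks with the combined treatment, 9.86 ± 0.936 with Raf alone and 6.36 ± 0.0679 in untreated libraries.

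Merged over the 16 lists, peaks made 355447 regions. A region was called gained when all 4 combined-treatment and none of the 4 untreated libraries had a peak in it, and lost in the reverse case. By this rule 41400 regions were gained (11.6%) and 27772 lost (7.81%). At matched depth 30301 were gained and 29311 lost, so that gains still outnumbered losses, by less. Lost regions were more often far from gene ends than regions at large: 27.8% were more than 100 kb from any gene end and 9.18% in gene-poor bins, against 19.9% and 4.96% of all regions, and 1.21% lay within 2 Mb of a chromosome end, against 4.29% of all. Lost regions also lay inside a gene more often, 59.8% of them, against 55.9% of all and 50.7% of gained regions. Gained regions were nearer to the background, with 19.6% more than 100 kb from a gene end, 3.95% in gene-poor bins and 5.02% near chromosome ends. Few of either kind touched gene ends. Within 1 kb of one lay 5.63% of gained and 2.43% of lost regions, against 8.04% of all regions and 18.1% of the 78756 regions with a peak in all 16 libraries, which are longer (median 817 bp, against 409 bp over all).

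The single-treatment libraries, which had no part in the rule, divided unequally over these regions. Of the gained regions 64.4% had a peak in all 4 Raf-alone libraries and 80.4% had none in any hypoxia-alone library. Of the lost regions 87.5% had none in any Raf-alone library, while 66.3% still had one in all 4 hypoxia-alone libraries. Yet 12.9% of gained regions, 5354 in number, had a peak in no library of either single treatment, and 9.57% of lost regions, 2659 in number, had none in either although all untreated libraries had one. The hypoxia-alone libraries are shallower than those of Raf alone, and a part of depth in these shares was not tested.

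**Figure D3:**
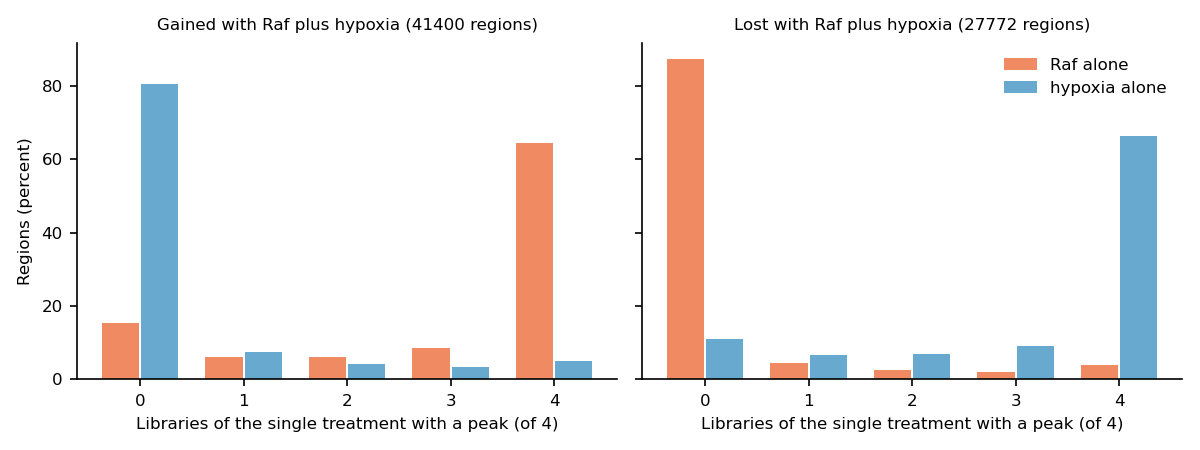
Percent of the 41400 gained (left) and 27772 lost regions (right) by the number of Raf-alone (orange) and hypoxia-alone (blue) libraries with a peak in the region, of 4 each. Gained regions are mostly called in all 4 Raf-alone and in 0 of 4 hypoxia-alone libraries, and lost regions the reverse.

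The strongest regions by the authors' -log10 p, ranked within each list, lay away from gene ends. The gained region of highest mean rank, at percentile 99.2 of the combined-treatment lists, was chr3:128435937-128436789, 9714 bp from an end of EEFSEC, which encodes the elongation factor for selenocysteine. Its fold enrichment over the local background, as the authors' caller gave it, was 11.6, 10.9, 11.9 and 11.6 in the combined-treatment libraries, and all 4 libraries of each single treatment also had a peak there. Next came chr21:42456327-42457204, 8643 bp from UBASH3A, and chr18:58615608-58616322 inside ALPK2, with folds of 23.8 to 25.1 and of 24.6 to 25.6. Of the lost regions the first was chr3:29232920-29233556, 47515 bp from RBMS3, an RNA-binding protein gene, at folds of 27.3, 25.5, 29.6 and 27.1 in untreated libraries. The second, on chromosome 8, lay 189110 bp from GSDMC, a gasdermin gene, at folds of 24 to 24.9, and the third was chr4:10093668-10094276 inside WDR1, an actin-disassembly gene, at 10.2 to 11.5. All 4 hypoxia-alone libraries and no Raf-alone library had a peak in these 3 lost regions.

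Promoters seldom changed. Of 15811 protein-coding genes with a RefSeq promoter window (GRCh38.p14, 250 bases before to 50 after the start), 9868 had a peak in all 16 libraries and 3997 in none. The window lay in a gained region for 175 (1.11%) and in a lost region for 71 (0.449%). Promoters were not counted at matched depth, and a part of depth in these numbers was not tested. Counting the window's own overlap with peaks, whatever the rest of the region did, gave 263 gained (1.66%) and 82 lost, a rule chosen after seeing the data. The changed promoters were poorer in CpG than those called in all 16 libraries. The 250 bases before the start held a median of 7 CpG dinucleotides in gained, 3 in lost and 22 in promoters called in all 16 libraries. The median GC content was 58.8%, 46% and 66% in the same order. Promoters called in no library held a median of 4 CpG dinucleotides, with a median GC content of 50.4%. Raf alone had a peak in all 4 libraries at 103 of the 175 gained promoters and hypoxia alone at 15; at the 71 lost promoters these numbers were 1 and 48. The 10 motifs searched on both strands of these 250 bases were AP-1 (TGANTCA), CRE (TGACGTCA), TEAD (GGAATG), RUNX (ACCACA), ETS (CCGGAAG), NF-kB (GGGANTTTC), C/EBP (TTGCNNAA), the HIF core HRE (ACGTG), CTCF (CNAGNNGGC) and NF-Y (CCAAT). The AP-1 motif TGANTCA was found in 12% of gained (21 of 175) and 15.5% of lost promoters (11 of 71), against 5.05% of all 15811. The TEAD motif GGAATG was found in 10.3% of gained and 21.1% of lost promoters, against 10.1% of all, the HIF core ACGTG in 16.6% of gained and 12.7% of lost, against 20.8% of all, and the ETS motif CCGGAAG in 2.29% of gained and 1.41% of lost, against 11.8% of all. None of the motifs is contained in another, although neighbouring matches can share bases. A match is a run of letters and no evidence of binding, and the part of CpG content in these shares was not tested.

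The sequences of 6 changed promoters show what such windows look like. The 250 bases before the start are given 5′ to 3′ on the gene's strand, in lower case with matches to TGANTCA or ACGTG on either strand in capitals. TRIM63 (chr1:26067631-26067880, minus strand), SLAMF8 (chr1:159826623-159826872, plus) and LAT (chr16:28984553-28984802, plus) were gained; HMGCLL1 (chr6:55579193-55579442, minus), NREP (chr5:111976933-111977182, minus) and SEMA3E (chr7:83649140-83649389, minus) were lost. TRIM63 and HMGCLL1 are shown because their loci changed most in each direction, and the others, chosen after their values were seen, for their matches.
TRIM63: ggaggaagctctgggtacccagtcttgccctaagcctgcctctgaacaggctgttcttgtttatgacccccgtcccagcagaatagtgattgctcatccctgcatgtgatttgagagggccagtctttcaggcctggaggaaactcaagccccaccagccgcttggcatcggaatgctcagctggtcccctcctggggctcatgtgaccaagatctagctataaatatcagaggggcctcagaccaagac
SLAMF8: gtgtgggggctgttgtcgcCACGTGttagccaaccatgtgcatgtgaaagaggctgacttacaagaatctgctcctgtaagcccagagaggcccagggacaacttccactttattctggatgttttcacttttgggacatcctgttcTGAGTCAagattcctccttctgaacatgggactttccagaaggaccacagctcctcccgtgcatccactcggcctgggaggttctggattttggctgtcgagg
LAT: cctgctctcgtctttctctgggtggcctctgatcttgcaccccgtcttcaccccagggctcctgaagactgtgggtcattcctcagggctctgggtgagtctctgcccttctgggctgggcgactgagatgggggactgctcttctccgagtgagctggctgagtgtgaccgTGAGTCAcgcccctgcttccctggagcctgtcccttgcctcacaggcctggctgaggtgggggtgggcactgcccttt
HMGCLL1: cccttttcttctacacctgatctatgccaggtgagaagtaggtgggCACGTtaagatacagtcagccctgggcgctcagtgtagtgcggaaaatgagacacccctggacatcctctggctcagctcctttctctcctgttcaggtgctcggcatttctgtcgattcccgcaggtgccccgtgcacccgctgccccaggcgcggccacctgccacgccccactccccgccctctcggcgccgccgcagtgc
NREP: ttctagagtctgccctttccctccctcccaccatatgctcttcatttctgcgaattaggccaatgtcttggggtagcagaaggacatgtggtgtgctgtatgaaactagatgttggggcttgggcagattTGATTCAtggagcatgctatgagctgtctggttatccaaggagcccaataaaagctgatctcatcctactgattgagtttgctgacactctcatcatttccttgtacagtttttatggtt
SEMA3E: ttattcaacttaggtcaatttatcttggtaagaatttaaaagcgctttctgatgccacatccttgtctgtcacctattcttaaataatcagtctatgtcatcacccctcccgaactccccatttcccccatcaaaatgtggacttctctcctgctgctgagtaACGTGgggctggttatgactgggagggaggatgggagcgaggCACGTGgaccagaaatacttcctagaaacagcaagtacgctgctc
SLAMF8, a receptor gene of the immunoglobulin family, holds TGAGTCA and the palindrome CACGTG; LAT, a T-cell signalling adaptor gene, holds TGAGTCA. NREP, a regeneration-associated gene, holds TGATTCA, and SEMA3E, a guidance and anti-angiogenic semaphorin gene, holds ACGTG and CACGTG. HMGCLL1 holds 1 ACGTG, on the other strand. TRIM63 holds neither motif. The peak at the HMGCLL1 promoter was a weak one, at percentile 14 of the untreated lists on average, whereas those at NREP and SEMA3E stood at 73.5 and 62.4 and those at SLAMF8, LAT and TRIM63 at 86.1, 81.4 and 73.6 of the combined-treatment lists. The 3 gained promoters had a peak in 4 of 4 Raf-alone libraries and in 2, 1 and 0 hypoxia-alone libraries for SLAMF8, LAT and TRIM63, and the 3 lost ones had one in 0 of 4 Raf-alone and 4 of 4 hypoxia-alone libraries.

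Counted over gene loci, the body of a protein-coding gene with 10 kb on each side, accessibility was rearranged at most genes. Peak numbers were scaled to the same total per library and tested as log2 of scaled peaks plus 1 in limma with Benjamini-Hochberg adjustment. Tested loci had a mean of at least 3 scaled peaks over the 16 libraries, which a locus can reach through some groups alone. Of 15217 loci tested 8951 were called (58.8%), of which 5019 rose (33%) and 3932 fell (25.8%), and at 8278 loci (54.4%) the 4 and 4 values did not overlap. Long genes fell more often than they rose, and short ones rose more often than they fell: of 693 genes over 300 kb 23.2% rose and 55.7% fell, and of 3154 genes under 10 kb 34.8% rose and 15.3% fell. The median length was 27054 bp for genes that rose and 67114 bp for those that fell. The balance rests on the scaling. Without it 7611 loci were higher and 2445 lower, 75.7% of calls where scaled values gave 56.1%, and the median log2 change moved to 0.25, against 0.06 when scaled; with TMM factors 51.0% of calls were higher. At matched depth 4794 loci were higher and 3415 lower. Windows of neighbouring genes share peaks, so neighbouring loci are not independent.

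The largest rises were at genes with few or no peaks in untreated cells. TRIM63 (chr1:26051301-26067630), a ubiquitin ligase gene known from muscle wasting, had 6.52, 6.64, 7.28 and 7.50 scaled peaks in combined-treatment libraries and 0 in each untreated library. Its fitted log2 change of 3.0 ± 0.08 (SE, adjusted p = 1.33e-13) depends on the pseudocount of 1 peak. GRIK3, a kainate receptor subunit gene, had 34.5, 25.6, 41.9 and 36.6 scaled peaks in combined-treatment libraries, against 6.49, 3.27, 3.25 and 5.33 in untreated ones. In both loci every combined-treatment library was above every untreated one. TERT, the catalytic subunit of telomerase, had 7.45, 9.49, 8.19 and 8.44 scaled peaks with the combined treatment, against 0, 0, 1.08 and 2.13 in untreated libraries, a log2 change of 2.55 ± 0.31 (SE, adjusted p = 2.99e-06). The other 7 of the 10 largest rises were IGSF21 at 2.90, ZNF831 at 2.59, the kinase gene MATK at 2.58, the Ras GTPase-activating protein gene RASAL1 at 2.44, HNRNPA1L3 at 2.40, the GABA transporter gene SLC6A11 at 2.40 and the ephrin receptor gene EPHA8 at 2.37. TRIM63, TERT, MATK and RASAL1 had fewer than 3 scaled peaks in every untreated library. They passed the filter of 3 on average only through groups where they are higher, so their p-values are given as a description. Single treatments are compared with the same untreated libraries. All 10 also rose with Raf alone, by 1.84 to 3.07, while with hypoxia alone their log2 changes lay between -0.11 and 0.85, and IGSF21 and ZNF831 passed the test there.

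The largest falls left few called peaks. HMGCLL1 (chr6:55434373-55678919), which encodes an enzyme of leucine and ketone body metabolism, had 0.932, 0.949, 0.910 and 0.938 scaled peaks in combined-treatment libraries, 1 peak in each, against 16.2, 19.6, 16.2 and 19.2 in untreated ones. The log2 change was -3.28 ± 0.11 (SE, adjusted p = 1.46e-12). HDAC2, a histone deacetylase gene, likewise had 1 peak in each combined-treatment library, 0.910 to 0.949 scaled peaks, against 11.9, 10.9, 10.8 and 10.7 in untreated ones, a log2 change of -2.64 ± 0.18 (SE, adjusted p = 3.20e-09). Both loci thus kept a single peak in every combined-treatment library. The HDAC2 promoter had a peak in 4 of 4 libraries of every group, whereas that of HMGCLL1 had one in 0 of 4 combined-treatment libraries. CNTN1, a neural adhesion gene, had no peak in any combined-treatment library and 7.57, 5.45, 4.33 and 3.20 scaled peaks in untreated ones. The matricellular gene SPARCL1 and PLSCR5 were also without a called peak in all 4 combined-treatment libraries, with 5.41 to 8.73 scaled peaks for SPARCL1 and 4.32 to 7.46 for PLSCR5 in untreated ones. PLSCR5 was tested in 7 of the 8 fits that left out a library. HMGCLL1, HDAC2, CNTN1, SPARCL1 and PLSCR5 had fewer than 3 scaled peaks in every combined-treatment library. These loci passed the filter of 3 on average only through groups where they are higher. METTL25 at -2.64, BLTP1 at -2.56 and KIAA0825 at -2.50 were also among the 10 largest falls, and their promoters had a peak in 4 of 4 libraries of every group. The promoters of CNTN1, SPARCL1 and PLSCR5 had none in any group. With Raf alone these 8 loci fell too, by 1.75 to 3.16 on the log2 scale; with hypoxia alone METTL25 fell by 0.45, CNTN1 rose by 0.70 and the other 6 lay between -0.36 and 0.28 and did not pass the test.

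**Figure D4:**
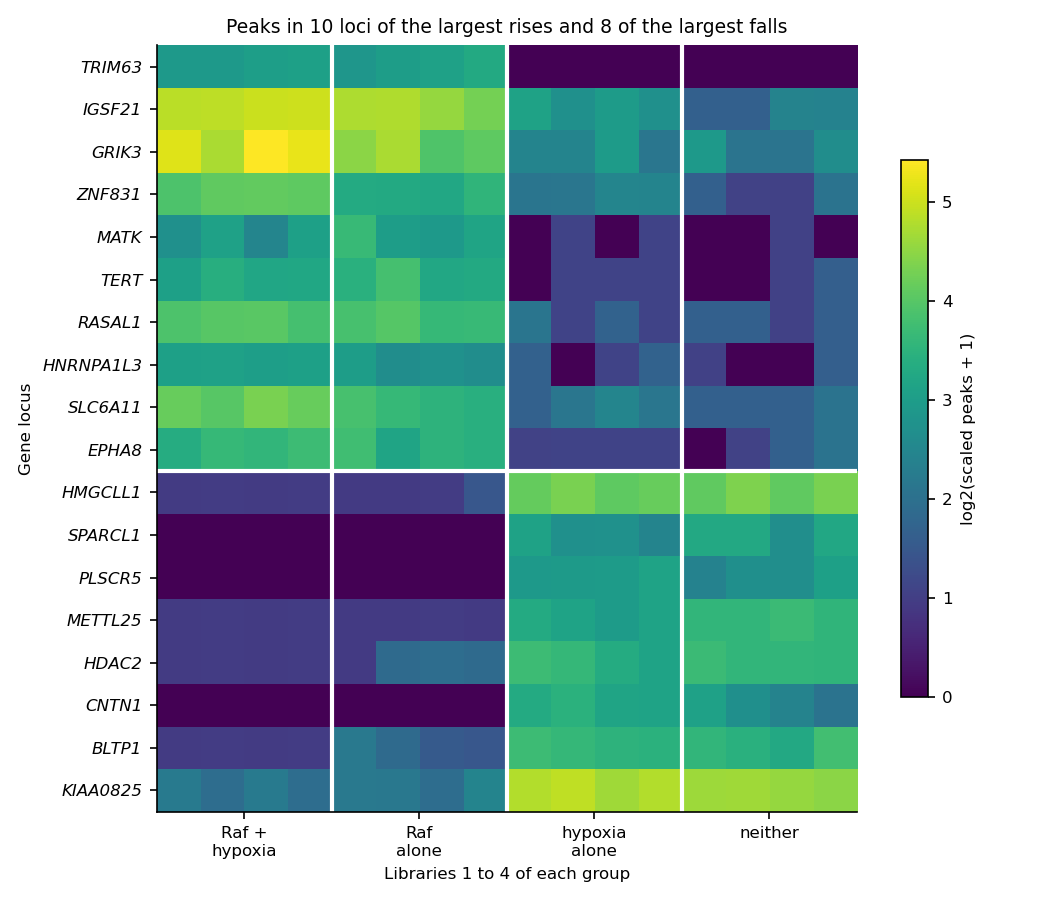
Scaled peaks as log2(scaled peaks + 1) in the 10 loci that rose most and 8 of the 10 that fell most with the combined treatment against untreated cells. Columns are the 4 libraries of each group and the darkest cells hold no peak. The Raf-alone columns resemble the combined-treatment ones and the hypoxia-alone columns the untreated ones.

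Among genes of the RAF-MAPK response, 13 of 34 tested rose and 4 fell, with a median log2 change of 0.14, against 0.06 over all loci, and 6 rose and 7 fell when peaks had to be enriched at least 5-fold. Loci of a list with a mean under 3 scaled peaks were not tested, and the share of all loci that rose (33%) or fell (25.8%) is the background for each list. The dual-specificity phosphatases, which switch off ERK and are themselves induced by it, split. DUSP4 had 6.52, 7.59, 8.19 and 8.44 scaled peaks in combined-treatment libraries, against 2.16, 2.18, 3.25 and 3.20 in untreated ones, and rose by 1.24 ± 0.14 (log2, SE, adjusted p = 8.50e-07). DUSP6 had 2.79, 1.90, 1.82 and 1.88 with the combined treatment, against 5.40, 5.45, 4.33 and 4.26 in untreated libraries. It fell by 0.93 ± 0.13 (log2, SE, adjusted p = 1.84e-05). Its direction turned when base pairs were counted in place of peaks (0.21, called) or loci were widened to 50 kb (0.15, not called). In neither locus did the groups overlap. The feedback inhibitor gene SPRY2 rose by 0.82 ± 0.14 (log2, SE), while SPRY4 had a log2 change of 0.03 (adjusted p = 0.839). Of 18 AP-1 genes 6 rose and 4 fell. FOSL1, a FOS family member induced by ERK, rose by 0.46 ± 0.11 (log2, SE), with 7.45 to 9.10 scaled peaks in combined-treatment and 5.33 to 6.55 in untreated libraries, while FOSL2 fell by 0.79 ± 0.09 (log2, SE), with 5.46 to 6.52 scaled peaks with the combined treatment and 9.75 to 11.7 in untreated libraries. FOSB rose by 0.60 ± 0.11 and BACH1 fell by 0.64 ± 0.09 (log2, SE). At 5-fold enrichment BACH1 was called in the opposite direction, at 0.23.

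Senescence genes moved in both directions. Of 28 tested 6 rose and 10 fell, with a median of -0.00074. LMNB1, the lamin B1 gene whose loss marks senescence, had 4.66, 5.69, 4.55 and 5.63 scaled peaks in combined-treatment libraries, against 15.1, 10.9, 11.9 and 11.7 in untreated ones, and fell by 1.13 ± 0.11 (log2, SE, adjusted p = 3.18e-07). Its promoter, like those of NFKB1 and CENPE described further on, had a peak in 4 of 4 libraries of every group. RB1, the retinoblastoma tumour suppressor, had 5.59, 6.64, 5.46 and 3.75 with the combined treatment, against 19.5, 16.4, 16.2 and 16 in untreated libraries, and fell by 1.52 ± 0.17 (log2, SE). In neither locus did the groups overlap. CDKN2A, which encodes p16 and ARF, had 9.32, 7.59, 7.28 and 9.38 scaled peaks with the combined treatment, against 5.40, 6.55, 5.41 and 7.46 in untreated libraries, and rose by 0.38 ± 0.12 (log2, SE, adjusted p = 0.00934), with 1 untreated library above the lowest combined-treatment one. Restricted to peaks enriched at least 5-fold, its change was -0.24 and was called in this opposite direction (limma, adjusted p = 0.0203). The pocket protein gene RBL2 fell by 1.40 ± 0.17 and the p53 target gene ZMAT3 fell by 1.21 ± 0.14 (log2, SE). HMGA2, a chromatin protein of senescence-associated heterochromatin, rose by 0.21 ± 0.08, though it was at -0.08 at matched depth and at -0.57, called, for peaks enriched at least 5-fold (log2, SE). CDKN1A, the p21 gene, had a log2 change of 0.17 (adjusted p = 0.298).

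Of 46 SASP genes, which encode what senescent cells secrete, 16 rose and 9 fell, with a median of 0.08. IL1B, an inflammatory cytokine, had 6.52, 6.64, 6.37 and 6.57 scaled peaks with the combined treatment, against 4.32, 3.27, 3.25 and 3.20 in untreated libraries, and rose by 0.75 ± 0.13 (log2, SE, adjusted p = 0.000106). AREG, an EGF receptor ligand, had 7.45, 6.64, 6.37 and 6.57 with the combined treatment, against 2.16, 3.27, 2.17 and 2.13 in untreated libraries, and rose by 1.19 ± 0.11 (log2, SE, adjusted p = 9.10e-08). The neutrophil chemokine CXCL8 went the other way, with 3.73, 2.85, 2.73 and 2.81 scaled peaks with the combined treatment, against 3.24, 4.36, 4.33 and 4.26 in untreated libraries, and fell by 0.33 ± 0.10 (log2, SE, adjusted p = 0.0121), with overlapping groups. Every library of both groups held 3 or 4 peaks at CXCL8, and without scaling its change was -0.16 and not called. IL6 (0.22, adjusted p = 0.112) and the collagenase gene MMP1 (-0.10, adjusted p = 0.298) did not pass the test. At matched depth IL6 was called at 0.30, and by base pairs covered both were called with the opposite sign, IL6 at -0.18 (adjusted p = 0.00773) and MMP1 at 0.45 (adjusted p = 3.63e-08). The stromelysin gene MMP3 fell by 0.33. It was not called without scaling (-0.15), at equal list length (-0.19) or at -log10 q of at least 5 (-0.21). IL1A rose by 0.34 ± 0.08, with -0.29 at 5-fold enrichment, the decoy receptor gene TNFRSF10C rose by 1.11 ± 0.13, and the cytokine gene IL7 fell by 0.98 ± 0.13 (log2, SE). Of 17 NF-kB, C/EBP and GATA4 regulators 5 rose and 3 fell: CEBPB rose by 0.87 ± 0.16, with 2.81 to 4.55 scaled peaks with the combined treatment and 1.07 to 2.18 in untreated libraries, and NFKB1 fell by 0.88 ± 0.08 (log2, SE), with 11.3 to 13.3 scaled peaks with the combined treatment and 21.7 to 25.1 in untreated libraries. CEBPB lay near the filter of 3 scaled peaks on average and was tested in 7 of the 8 fits that left out a library. The NF-kB subunit gene REL fell by 0.74 ± 0.10 (log2, SE).

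Genes of oxygen sensing showed no common direction. Of 48 HIF targets 13 rose and 12 fell, with a median of 0.09. ANKRD37, a HIF target, had 6.52, 6.64, 8.19 and 6.57 scaled peaks in combined-treatment libraries, against 1.08, 2.18, 3.25 and 3.20 in untreated ones, and rose by 1.27 ± 0.18 (log2, SE, adjusted p = 1.59e-05). The chemokine receptor CXCR4 had 4.66, 4.75, 4.55 and 4.69 with the combined treatment, against 0, 1.09, 1.08 and 2.13 in untreated libraries, and rose by 1.56 ± 0.26 (log2, SE, adjusted p = 6.92e-05). Carbonic anhydrase CA9 had 6.52, 6.64, 6.37 and 7.50 with the combined treatment, against 8.65, 7.64, 8.66 and 9.59 in untreated libraries, and fell by 0.31 ± 0.10 (log2, SE, adjusted p = 0.0167), though its change was 0.08 for peaks enriched at least 5-fold. Each of these loci kept its groups apart, in opposite directions. CXCR4 had fewer than 3 scaled peaks in every untreated library and passed the filter only through groups where it is higher. VEGFA at 0.02 (adjusted p = 0.899) and NDRG1 at 0.22 (adjusted p = 0.117) did not pass the test. For peaks enriched at least 5-fold NDRG1 was called with the opposite sign, at -0.57. Of 10 HIF subunit and oxygen sensor genes 4 rose and 1 fell. VHL, which targets HIF for degradation, had 9.32, 8.54, 7.28 and 7.50 with the combined treatment, against 4.32, 3.27, 2.17 and 1.07 in untreated libraries, and EPAS1, which encodes HIF-2α, had 26.1, 30.4, 29.1 and 28.1 with the combined treatment, against 17.3, 17.5, 15.2 and 12.8 in untreated libraries. They rose by 1.39 ± 0.19 and 0.83 ± 0.09 (log2, SE). Of 22 glycolysis genes 5 rose and 3 fell, among them PFKP, a phosphofructokinase, which rose by 0.68 ± 0.10 (log2, SE). With overlapping groups PGAM1 rose by 0.45 ± 0.13, with -0.0080 for 50-kb flanks, and ALDOC fell by 0.39 ± 0.12 (log2, SE).

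Fibroblast genes fell more often than they rose, relative to the library total. Of 14 fibroblast markers 2 rose and 7 fell, with a median of -0.36, which was -0.02 for peaks enriched at least 5-fold. The collagen gene COL1A2 had 7.45, 7.59, 7.28 and 8.44 scaled peaks with the combined treatment, against 11.9, 13.1, 13.0 and 10.7 in untreated libraries, and fell by 0.60 ± 0.11 (0.16 for peaks enriched at least 5-fold), the intermediate filament gene VIM fell by 0.59 ± 0.11, and LUM, a collagen-binding proteoglycan, fell by 0.68 ± 0.14 (log2, SE). Of 43 matrix genes 12 rose and 17 fell, with a median of -0.11, which was -0.01 at matched depth and 0.08 at 5-fold enrichment, where 11 rose and 12 fell. The collagen gene COL5A3 had 13.97, 15.2, 15.5 and 15.9 scaled peaks with the combined treatment, against 8.65, 7.64, 7.58 and 8.52 in untreated libraries, and rose by 0.83 ± 0.10 (log2, SE). COL11A1 had 3.73, 2.85, 1.82 and 1.88 with the combined treatment, against 7.57, 10.9, 6.50 and 6.39 in untreated libraries, and the fibrillin gene FBN2 had 8.38, 11.4, 11.8 and 11.3 with the combined treatment, against 22.7, 26.2, 23.8 and 23.4 in untreated libraries. They fell by 1.32 ± 0.16 and 1.10 ± 0.09 (log2, SE), and no library of either group reached into the other. COL1A1 at -0.22 did not pass the test (adjusted p = 0.0707). Of 24 contractile and TGF-beta genes 1 rose and 10 fell, with a median of -0.09: smooth muscle actin ACTA2 fell by 0.57 ± 0.08, with 8.54 to 10.9 scaled peaks with the combined treatment and 14.1 to 15.1 in untreated libraries, and TGFBR2 by 0.58 ± 0.09, with 12.3 to 14.1 scaled peaks with the combined treatment and 18.4 to 22.4 in untreated libraries (log2, SE). Without scaling, 18 matrix genes were higher and 13 lower and 3 contractile genes were higher and 3 lower, so the direction of both lists is relative to the library total. The 1 contractile-list gene that rose was SMAD7, an inhibitor of TGF-beta signalling, by 0.49 ± 0.10 (log2, SE), and TGFB1 itself was at -0.03 (adjusted p = 0.786). Of 24 fibroblast identity factors 6 rose and 4 fell. ZEB1, a mesenchymal transcription factor, rose by 0.86 ± 0.11 (log2, SE), with 35.1 to 39.4 scaled peaks with the combined treatment and 18.1 to 23.8 in untreated libraries. SNAI1, another mesenchymal factor, fell by 0.61 ± 0.17, with overlapping groups, and was at 0.07 by base pairs and 0.0012 at 5-fold enrichment, and TCF21 fell by 0.55 ± 0.14 (log2, SE).

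Neural adhesion and synaptic genes, many of them very long, fell more often than they rose. Of 35 members 22 were tested, of which 15 fell, 3 rose and 4 were not called, with a median of -0.65, beside 55.7% lower among all genes over 300 kb, and 14 fell and 6 rose without scaling. CNTN5, a contactin gene, had 5.59, 4.75, 5.46 and 4.69 scaled peaks in combined-treatment libraries, against 28.1, 25.1, 23.8 and 26.6 in untreated ones. It fell by 2.14 ± 0.09 (log2, SE, adjusted p = 2.02e-11). GRIK2, a kainate receptor subunit gene, had 15.8, 16.1, 13.6 and 14.1 scaled peaks with the combined treatment, against 47.6, 46.9, 44.4 and 45.8 in untreated libraries, and fell by 1.57 ± 0.10 (log2, SE). The list's summed level was 555 to 569.4 scaled peaks with the combined treatment, 404.6 to 454.7 with Raf alone, 879.3 to 904.5 with hypoxia alone and 795.6 to 806.4 in untreated libraries.

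Chromatin genes changed in both directions, where 58.8% of all loci were called. Of 25 lamina, HP1 and heterochromatin genes 9 rose and 11 fell (6 and 7 of 22 at matched depth), of 30 histone methyltransferases 11 rose and 8 fell, and of 19 demethylases 9 rose and 4 fell. PRDM16, a methyltransferase-family regulator, had 68.9, 68.3, 69.2 and 71.3 scaled peaks with the combined treatment, against 20.5, 22.9, 29.2 and 27.7 in untreated libraries, and rose by 1.45 ± 0.10 (log2, SE, adjusted p = 5.77e-09). The inner nuclear membrane gene LEMD3 fell by 1.49 ± 0.19 and the lamina-associated gene TMPO fell by 1.11 ± 0.19 (log2, SE). Of the methyltransferases of H4K20 and H3K79, KMT5C rose by 0.89 ± 0.12 and DOT1L rose by 0.85 ± 0.08, and the demethylase gene KDM7A rose by 0.85 ± 0.10 (log2, SE). The H3K9 demethylases differed: KDM4C had 26.1, 24.7, 25.5 and 26.3 with the combined treatment, against 50.8, 55.6, 54.1 and 51.1 in untreated libraries, and fell by 1.02 ± 0.07, while KDM4B had 32.6, 32.3, 30.9 and 33.8 with the combined treatment, against 25.9, 25.1, 23.8 and 28.8 in untreated libraries, and rose by 0.31 ± 0.07 (log2, SE). The H3K27 demethylase KDM6A fell by 1.22 ± 0.09, with 6.52 to 7.50 scaled peaks with the combined treatment and 16.2 to 18.5 in untreated libraries, and EZH2, the methyltransferase of the same residue, had a log2 change of -0.01 (adjusted p = 0.920). Of 17 cathepsin and histone protease genes 5 rose and 4 fell, of 18 matrix metalloproteinases and inhibitors 4 rose and 5 fell, of 39 cell cycle genes 14 rose and 9 fell, of 29 interferon response genes 10 rose and 5 fell, and of 23 NOTCH pathway genes 10 rose and 6 fell, NOTCH1 by 0.73 ± 0.08. Among proteases, the matrix metalloproteinase genes MMP14 and MMP11 and the aggrecanase gene ADAMTS5 fell, by 0.81 ± 0.10, 0.63 ± 0.09 and 0.94 ± 0.12, MMP11 turning to 0.06 with 50-kb flanks (log2, SE). The cathepsin gene CTSW rose by 0.80 ± 0.13 and CTSO fell by 1.31 ± 0.17, and MIPOL1, a member of that list whose name marks no protease, fell by 1.38 ± 0.10 (log2, SE). Of cell cycle genes, the kinetochore motor gene CENPE fell by 1.72 ± 0.15, while the cyclin gene CCNE1 rose by 1.14 ± 0.15 and the survivin gene BIRC5 rose by 1.11 ± 0.12 (log2, SE). Of interferon response genes, RSAD2 and OAS2, which act against viruses, rose by 0.89 ± 0.16 and 0.71 ± 0.11, and IFI44L fell by 0.71 ± 0.16 (log2, SE). The median of the interferon list, 0.20, turned to -0.08 at 5-fold enrichment, where 2 of 14 rose and 4 fell. In the NOTCH list HES2 rose by 0.79 ± 0.10 and LFNG, which modifies NOTCH receptors, rose by 0.65 ± 0.10, turning to -0.06 for peaks enriched at least 5-fold (log2, SE).

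Marker loci of other cell types held peaks in both groups, and their calls are read against the 33% of all loci that rose and the 25.8% that fell. Of 20 epithelial markers 15 were tested and 9 rose, and their summed level was 99.2 to 105.3 scaled peaks with the combined treatment, 95.4 to 103.2 with Raf alone, 79.4 to 86.3 with hypoxia alone and 79.9 to 83.4 in untreated libraries. Of 18 blood markers 10 were tested and 6 rose, with summed levels of 81 to 84.5 with the combined treatment and 55.6 to 59.6 in untreated libraries. Of 16 endothelial markers tested 9 rose and 2 fell (177.9 to 185.6 with the combined treatment, against 161.1 to 168.0 in untreated libraries), of 10 neuronal markers 6 rose and 4 fell (146.3 to 153.8 with the combined treatment, against 127.8 to 141.7 in untreated libraries), and of 10 muscle markers 3 rose (70.2 to 79.2 with the combined treatment, against 45.4 to 49.8 in untreated libraries). Among blood markers the integrin genes ITGAX and ITGAM and the myeloid factor gene SPI1 rose, by 1.35 ± 0.14, 1.08 ± 0.15 and 0.99 ± 0.13 (log2, SE). RBFOX3, which encodes the neuronal protein NeuN, had 78.3, 82.6, 86.4 and 80.7 scaled peaks with the combined treatment, against 24.9, 29.5, 31.4 and 30.9 in untreated libraries, and rose by 1.47 ± 0.10 (log2, SE). SYT1, a synaptic vesicle gene, went the other way with 17.7, 18.0, 17.3 and 17.8 scaled peaks with the combined treatment, against 47.6, 46.9, 45.5 and 49.0 in untreated libraries, and fell by 1.37 ± 0.07, and GAD1 fell by 0.98 ± 0.23 (log2, SE). Neuronal marker loci thus split. Their median log2 change of 0.52 turned to -0.40 when peaks went to the nearest gene, where 4 of 11 rose and 6 fell. PAX7, a muscle stem cell factor gene, had 25.2, 21.8, 23.7 and 28.1 scaled peaks with the combined treatment, against 3.24, 3.27, 3.25 and 9.59 in untreated libraries, and rose by 2.26 ± 0.49 (log2, SE), and the muscle genes MYOG and TNNI2 rose by 1.24 ± 0.33 and 0.52 ± 0.13 (log2, SE). Of endothelial markers EGFL7 rose by 0.84 ± 0.22 and EMCN fell by 1.23 ± 0.20, and of epithelial ones the surfactant gene SFTPC rose by 0.65 ± 0.18 with overlapping groups, KRT18 rose by 0.52 ± 0.14 and OVOL1 rose by 0.48 ± 0.13, whose change was -0.0029 by base pairs (log2, SE). Markers left untested averaged under 3 scaled peaks, and the summed levels cover tested markers. The B-cell gene MS4A1, the neuronal gene ELAVL4, and MYF5 and MYH1 of muscle had no peak in any combined-treatment or untreated library. ESRP1, MMRN1, HBB, SLC17A6 and MYH2 had none in any combined-treatment library only, and CD3D, GAD2 and MYH7 none in any untreated library only. The part of other cells in these results was not tested. In bulk libraries a change in the cells present cannot be told apart from a change within each cell.

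Some named loci kept their direction but were no longer called in another processing. At matched depth these were ALDOC at -0.18, CA9 at -0.19, CDKN2A at 0.23, OAS2 at 0.19 and SPRY2 at 0.27 (log2). At equal list length they were CA9 -0.18, CDKN2A 0.25, MMP3 -0.19, OAS2 0.18, PGAM1 0.21 and TNNI2 0.09. At -log10 q of at least 5 they were CDKN2A 0.26, MMP3 -0.21, OVOL1 0.28 and TNNI2 0.17. For peaks enriched at least 5-fold they were ACTA2 at -0.04, ADAMTS5 at -0.33, COL5A3 at 0.23, FOSL1 at 0.13, ITGAX at 0.23, KDM7A at 0.30, MMP11 at -0.10, NOTCH1 at 0.07, SMAD7 at 0.23, SPI1 at 0.11 and ZEB1 at 0.13. With 50-kb flanks, which take in neighbouring genes' peaks, they were ALDOC at -0.18, ANKRD37 at 0.03, BIRC5 at 0.02, FOSB at 0.08, FOSL2 at -0.11, KDR at 0.18, KRT18 at 0.09, RBL2 at -0.07, SNAI1 at -0.12 and SPRY2 at 0.36. By nearest gene they were CDKN2A 0.13, FOSL2 -0.16, HMGA2 0.07, IL1B 0.40, PGAM1 0.05, SNAI1 -0.17, SPRY2 0.04 and TMPO -0.14. Unscaled they were ALDOC -0.23, CA9 -0.12, CXCL8 -0.16 and MMP3 -0.15. CA9 was at -0.03 by base pairs covered and HMGA2 at 0.17 with TMM factors.

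**Figure D5:**
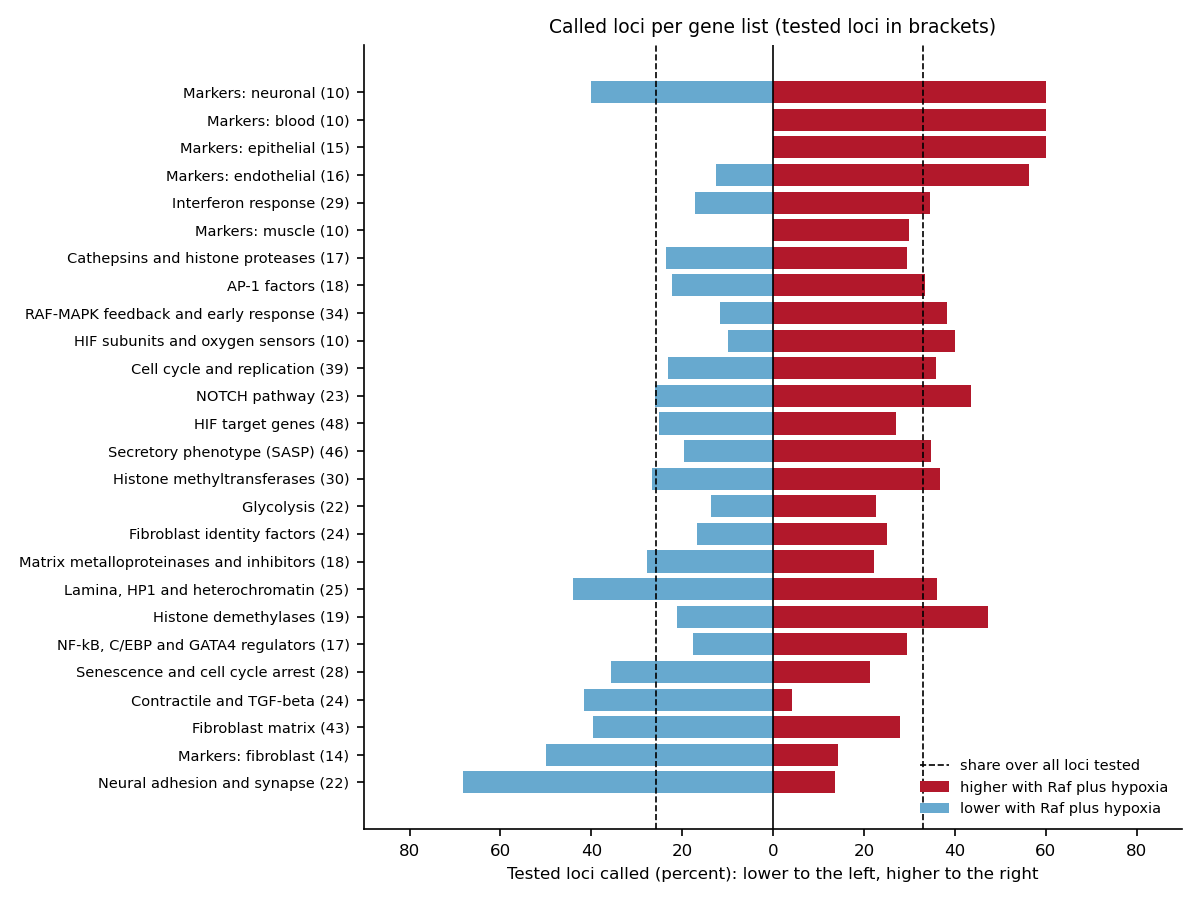
Percent of tested loci that were called higher (red, right) or lower (blue, left) with the combined treatment against untreated cells, for each gene list, ordered by its median log2 change, with the number tested in brackets. Dashed lines mark the shares over all loci tested, 33% and 25.8%. Neural adhesion genes lie lowest, with 15 of 22 loci lower. Directions are relative to the library total: without scaling the medians of the matrix and contractile lists turn positive, as does that of the matrix list at 5-fold enrichment.

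The same fit gives each single treatment and the combined treatment against Raf alone. Against Raf alone, 4155 loci differed (27.3%), and the interaction, the departure of the combined change from the sum of the single ones on the log2 scale, was called at 2772 (18.2%). EGLN3 (chr14:33924227-33951074), the prolyl hydroxylase PHD3 and itself a HIF target, had 4.66, 5.69, 4.55 and 5.63 scaled peaks in combined-treatment libraries, 0.902 ± 0.0314 with Raf alone and 7.01 ± 0.547 with hypoxia alone, against 4.32, 3.27, 3.25 and 3.20 in untreated ones (mean ± SD, n = 4). It rose by 0.45 ± 0.09 with the combined treatment (log2, SE, adjusted p = 0.000454), fell by 1.24 with Raf alone and rose by 0.83 with hypoxia alone, with an interaction of 0.85 (adjusted p = 0.000376). The locus was thus higher than untreated with both treatments and lower with Raf alone. ANKRD37 rose by 0.47 with Raf alone and by 0.57 with hypoxia alone, beside 1.27 with both, and the interaction of 0.23 was not called (adjusted p = 0.566). CXCR4 rose by 1.55 with Raf alone, 1.98 with hypoxia alone and 1.56 with both, with an interaction of -1.97 (adjusted p = 0.00164). KDR, a VEGF receptor, rose by 1.07 with Raf alone, 1.45 with hypoxia alone and 1.03 with both, with an interaction of -1.49 (adjusted p = 5.73e-05). The combined change of KDR was 0.18 and not called with 50-kb flanks. It turned to -0.18, and was called, when peaks went to the nearest gene. CXCL8 rose by 0.54 with Raf alone and fell by 0.33 with both, with an interaction of -0.99 (adjusted p = 0.000349), and CDKN2A rose by 0.92 with Raf alone and 0.38 with both, with an interaction of -0.69 (adjusted p = 0.00852).

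At 997 loci the combined treatment was called against untreated cells, against each single treatment and in the interaction, without overlap of libraries with those of untreated cells; 342 of them were higher and 655 lower than untreated. The examples here were chosen after their values were seen, by the size of the interaction. SMYD1, a muscle methyltransferase gene, had 9.32, 5.69, 9.10 and 6.57 scaled peaks with the combined treatment, 0.458 ± 0.530 with Raf alone and 1.12 ± 0.0137 with hypoxia alone, against 1.08, 2.18, 3.25 and 5.33 in untreated libraries. It passed the filter of 3 scaled peaks on average only through the group where it is high, and was tested in 3 of the 8 fits that left out a library. SKOR2, a transcriptional co-repressor gene, had 7.45, 6.64, 7.28 and 5.63 with the combined treatment, 0.885 ± 0.720 with Raf alone and 4.20 ± 0.519 with hypoxia alone, against 4.32, 4.36, 3.25 and 3.20 in untreated libraries. Both were lower than untreated with Raf alone. NBN, which encodes nibrin of the DNA break repair complex MRN, had 0.932, 1.90, 1.82 and 0.938 scaled peaks with the combined treatment, 6.09 ± 0.539 with Raf alone and 5.90 ± 0.636 with hypoxia alone, against 6.49, 4.36, 5.41 and 4.26 in untreated libraries, and its interaction was -1.77 (adjusted p = 4.46e-05). So this locus was low with both treatments together, and with neither one alone did it pass the test. NECAB1, a calcium-binding protein gene, had a single peak in 1 of the 4 combined-treatment libraries, 1.56 ± 0.826 scaled peaks with Raf alone and 8.41 ± 1.88 with hypoxia alone, against 4.32, 3.27, 4.33 and 3.20 in untreated libraries. On average only the hypoxia-alone and untreated groups exceeded the filter of 3 scaled peaks.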

How the data were processed

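ATAC-seq peaks of 16 IMR90 libraries were used, 4 per group, as labelled. Per the submitters' processing notes, the authors' tools included MACS2, Bowtie2, Picard, SAMtools, FastQC, cutadapt, bedtools and deepTools, with build hg38, and versions are not given in the sources used here. The deposited lists, 1 per library, give for each peak a score, a fold enrichment (a ratio over local background), and -log10 of p and q, as the authors' caller wrote them. They hold no reads, so total depth is unknown, and the local background stands in for it. Intervals listed more than once for several summits were counted once, on chromosomes 1 to 22 and X.

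Pileup and background were solved from fold and p. Recovered pileups were whole numbers within 0.05. For matched depth they were thinned binomially to the lowest background, 3.013, and peaks with -log10 p of at least 5 kept. Library values were compared by exact permutation over libraries (4 against 4, two-sided, smallest p 0.0286). Loci and 1-Mb bins were fitted over all 16 libraries with 4 group means in limma 3.58.1 (R 4.3.3) on log2 of scaled peaks plus 1, for means of at least 3 (loci) and 10 peaks (bins), with Benjamini-Hochberg adjustment at 0.05. Counts were simulated for this comparison with 198, 195 and 191 tested loci changed 1.5-fold, 2-fold and 4-fold. In that order 72.2%, 94.9% and 100% were recovered, and 11, 14 and 16 unchanged loci were also called. Far fewer loci changed there than were called in the data, so the simulation does not test the scaling. Genes are those of RefSeq (19970 protein-coding, of which 15811 matched a promoter window). The gene table has no strand, so both ends of a gene were used.

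Loci named are the 10 largest rises and falls whose libraries did not overlap, a fixed set of genes, up to 3 called members with the largest change in each of 26 lists, and the 3 gained and lost regions of highest mean rank; 2 of the largest falls and 1 marker are not reported here. The comparison, lists and genes were chosen with earlier results of these data known. Same-numbered libraries of both groups did not deviate together, so numbers were not used to pair them. Motif shares over peaks were not run, since no genome was used here. Alternatives varied depth, threshold, flanks, scaling, filter and libraries.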

Additional observations from a re-analysis of the deposited data

Results flagged for a closer look

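Of 242 groups of 4 libraries examined, 44 had 1 library far from the other 3. The rule's rate of about 1 in 20 by chance holds for continuous values. Peak numbers are whole and often tied, so that rate does not apply here and no excess is read from the count. Most such gaps are of 1 whole peak. Among untreated libraries, in scaled peaks, PAX7 had 9.59 in 1 library (others 3.24 to 3.27), SPARCL1 5.41 (8.52 to 8.73), RB1 19.5 (16 to 16.4) and EMCN 7.46 (5.40 to 5.45). Values apart among untreated libraries were also MATK 1.08, RASAL1 1.08, SLC6A11 3.20, CDKN1A 5.40, IL1A 6.49, IL1B 4.32, CXCL8 3.24, MMP1 8.66, FOSL1 6.55, EGLN3 4.32, RBL2 6.39, AREG 3.27, OAS2 5.45, NOTCH1 5.45, ITGAX 4.26, ITGAM 3.20, TCF21 4.26, TMPO 6.39, KDM7A 6.55, IFI44L 4.33, OVOL1 3.24, SPI1 4.33 and TNNI2 2.16.

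Among combined-treatment libraries EZH2 had 8.54 in 1 library (others 10.9 to 11.3), FBN2 8.38 (11.3 to 11.8) and ANKRD37 8.19 (6.52 to 6.64). The others were IL6 4.55, CXCL8 3.73, MMP1 6.37, DUSP6 2.79, ADAMTS5 3.73, MMP14 5.46, KMT5C 7.28, KRT18 6.37, NECAB1 0.949, ALDOC 3.75, TCF21 2.73, BIRC5 6.37, TMPO 2.81 and VIM 1.90.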

How the results depend on the processing

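Among library values, the difference in distinct peaks was 0 at equal list length (set by construction), 566 at matched depth and 817 for peaks enriched at least 5-fold, and none of these passed the test. The share at gene ends differed by 0.807 at equal list length, 0.826 at matched depth, 0.433 at 5-fold and 0.873 within 2 kb, all past the threshold, and by -0.0152 at -log10 q of at least 5. The cause was not tested. Gained regions numbered 25404 at 5-fold, and 63427 were gained and 42410 lost when 3 of 4 against at most 1 of 4 libraries sufficed. By overlap of the promoter window alone 263 promoters were gained. Unscaled, 7611 loci were higher and 2445 lower. In 500-kb bins 1694 were higher and 2065 lower, out of more bins.

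Leaving out 1 library at a time, where the smallest exact p is 0.0571, distinct peaks differed by 22844 to 25900, covered length by 18.3 to 20.2 Mb, gene-poor share by -1.57 to -1.55, share near chromosome ends by 1.27 to 1.29 and median length by 17.7 to 22 bp, and 0 of 23 chromosome shares could pass. Loci numbered 4608 to 4851 higher and 3686 to 3757 lower.

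With the replicate number as a block (exact sign-flip permutation, smallest p 0.125), the differences stayed 24584 peaks, 19.4 Mb, -1.56, 1.28 and 20 bp, and 0 chromosomes could pass. The block gave 4972 loci higher and 3875 lower. Same-numbered libraries correlated at -0.00736, -0.0278, -0.0181 and 0.0018, so the numbers are only numbers.

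Of 2310 alternative values for 116 named loci 2177 kept direction and call, 57 lost the call, 23 gained it and 53 reversed. Reversed log2 changes, at 5-fold enrichment, were CDKN2A -0.24, HMGA2 -0.57, IL1A -0.29, CA9 0.0818, NDRG1 -0.57, COL1A1 0.0159, EZH2 0.0115, BACH1 0.23, SNAI1 0.0012, LFNG -0.0646 and COL1A2 0.16. At equal list length they were HMGA2 -0.0196, SPRY4 -0.19, VEGFA -0.0136, COL1A1 0.20 and TGFB1 0.029. At matched depth they were HMGA2 -0.0802, MMP1 0.0182, SPRY4 -0.16, VEGFA -0.0201, COL1A1 0.16 and TGFB1 0.0224. At -log10 q of at least 5 COL1A1 was at 0.10. With 50-kb flanks HMGA2 was at -0.0613, IL6 -0.11, DUSP6 0.15, NDRG1 -0.0076, MMP11 0.0649 and PGAM1 -0.008. By base pairs IL6 was at -0.18, MMP1 0.45, DUSP6 0.21, TGFB1 0.0675, OVOL1 -0.0029 and SNAI1 0.0709. By nearest gene IL6 was at -0.22, DUSP6 0.0124, EZH2 0.14 and KDR -0.18. Unscaled, MMP1 was at 0.085, TGFB1 0.16 and EZH2 0.18, and with TMM SPRY4 at -0.0077 and VEGFA at -0.0216. Leaving out 1 library, the log2 change of SPRY4 ranged from -0.0910 to 0.12, that of VEGFA from -0.0715 to 0.0757, that of TGFB1 from -0.0685 to 0.0326 and that of EZH2 from -0.0474 to 0.0729. Called with the reversed sign at 5-fold enrichment were CDKN2A, HMGA2, NDRG1 and BACH1. By base pairs these were IL6, MMP1 and DUSP6, and by nearest gene IL6 and KDR. Planned motif shares over peaks could not be run.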
